A study of Rattus norvegicus with 24 samples.

Results

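Lung tissue of rats was compared between the samples numbered 6 and the samples numbered 5 of a series that was set up to study the molecular basis of a lung cancer model driven by smoky coal, a coal whose smoke carries polycyclic aromatic hydrocarbons. Each sample title pairs one of 4 letters (A, B, C and G) with one of 6 numbers, and the comparison took A6, B6, C6 and G6 against A5, B5, C5 and G5, which are 8 of the 24 samples. Every sample of both numbers carries the same tissue label, lung, and the same protocol label, smoky coal. The labels give no meaning for the letters or the numbers, no untreated control, and no strain, sex, age, dose or time, so each direction below is that of the numbers alone. The labels do not say that the samples came from separate animals, and p-values here measure the spread between samples, which may be technical.

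A lung sample holds the epithelium of alveoli and airways, vessels, stroma and resident and circulating leukocytes in one extract. T lymphocytes recognise antigen through the T cell receptor and the CD3 chains, natural killer (NK) cells and cytotoxic T cells kill through perforin and granzymes, and B cells carry surface immunoglobulin with the CD79 chains. Heat shock chaperones fold proteins under the control of heat shock factor, and the enzymes of sterol and fatty acid synthesis, which supply surfactant lipid in alveolar type 2 cells, are under the control of sterol regulatory element binding proteins. In bulk tissue a lower value from fewer cells of a type and one from less RNA per cell cannot be told apart.

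The deposited values are normalized read counts for 30667 genes. They summed to between 61717516 and 64313467 over the 8 samples, and the 10 most abundant genes took 4.65% to 5.79% of each total. Lung markers stood high in all 8, with Sftpc, the surfactant protein C of alveolar type 2 cells, between 610363 and 813448, and Ager, the receptor that marks alveolar type 1 cells, between 155039 and 185212. Markers of heart muscle differed between libraries beyond their numbers. The list score for cardiac muscle (the mean, over the genes of a list, of each gene's log2 deviation from its mean over the 24 samples) was 2.80 in G5 and 1.20 in A6 and between -2.34 and 0.72 in the other 6 samples. The part of this in the results below was not tested.

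Genes of T, NK and B cells were higher in the samples numbered 6, and some chaperones and enzymes of lipid synthesis were lower. In the fit of all genes by limma, with number and letter as terms on log2(value + 1), 159 genes passed an adjusted p of 0.05. Of these, 134 were higher and 25 were lower in number 6, which is 0.518% of all genes in either direction, 0.437% higher and 0.0815% lower. At an unadjusted p under 0.05 there were 2025 genes higher (6.60%) and 1559 lower (5.08%). All log2 differences are number 6 minus number 5, so that a difference of 1 is a 2-fold higher value in number 6. The 134 higher genes had a median log2 difference of 0.62 (0.35 to 2.87), and the 25 lower genes one of -0.55 (-0.90 to -0.35), so most changes were under 2-fold.

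All 159 called genes had the same sign in 4 of 4 letters, as 10.7% of all genes did upward and 8.50% downward, and in 132 of them the 4 samples numbered 6 did not overlap the 4 numbered 5. Over all genes 4.07% had number 6 above without overlap and 2.98% below. The calls were made by a test on these same values, which favours a shared sign and no overlap, so these counts do not support the calls. The calls rest on few samples. With letter B left out no gene passed the adjusted threshold and 2283 genes passed the unadjusted one. With letter C left out the same counts were 0 and 2525, with A left out 8 and 2986, and with G left out 337 and 4481, always by limma. The sign of all 159 genes was kept in each of these 4 fits, which follows from their same sign in 4 of 4 letters and is no further support. Without the letter block 79 of the 159 passed, and in a fit of all 24 samples 64 did.

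**Figure D1:**
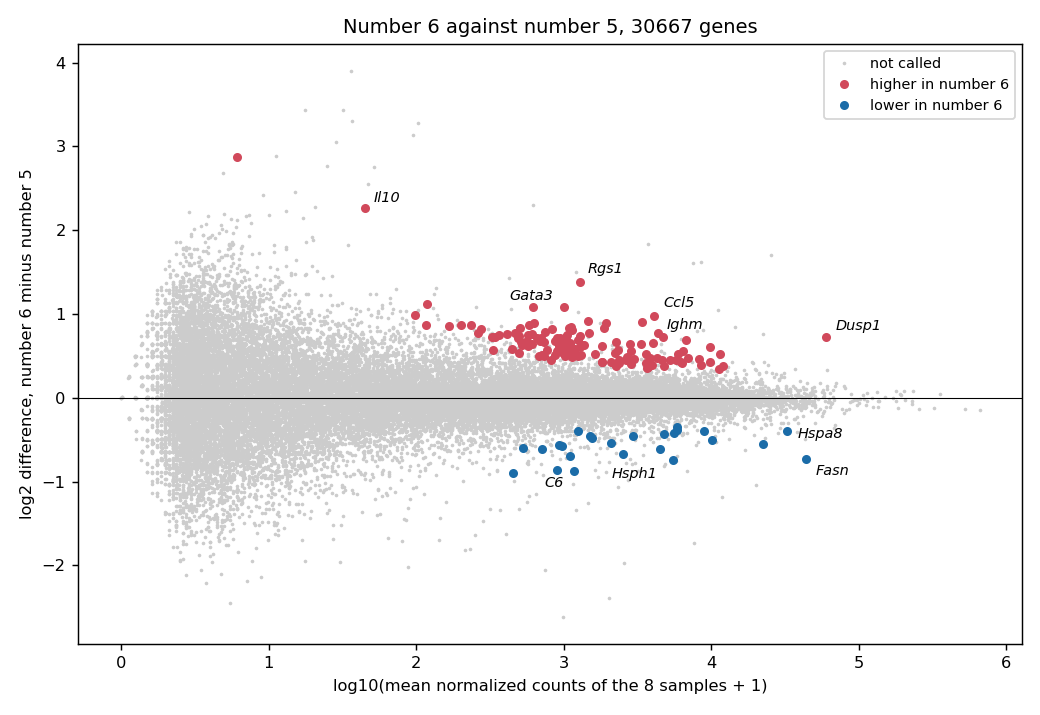
Each point is 1 of the 30667 genes, with log10 of its mean normalized count over the 8 samples plus 1 on the x axis and its log2 difference, number 6 minus number 5, on the y axis. Red points are the 134 genes called higher, blue points the 25 called lower, and grey points the rest. Most called genes lie under a difference of 1 in size, and 6 lie beyond it.

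Cytotoxic and NK cell genes held the gene of smallest p. Ccl5, a chemokine made by cytotoxic lymphocytes, was at 2383, 2568, 2200 and 3871 normalized counts in A5, B5, C5 and G5 and at 4794, 5403, 4183 and 7225 in A6, B6, C6 and G6. Each letter rose, G5 and G6 were the highest of their numbers, and the groups did not overlap. The log2 difference was 0.98 (SE 0.06, adjusted p = 0.0023, limma), and without the letter block the adjusted p was 0.0515. Gzma, the granzyme A protease, was at 702, 677, 631 and 1049 in number 5 and at 1279, 1318, 958 and 1988 in number 6. Here G5 lay above C6, so the groups overlapped although every letter rose, with a log2 difference of 0.84.

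Prf1, the pore-forming perforin, overlapped in the same way. It was at 2810, 2843, 2583 and 4101 in A5, B5, C5 and G5 and at 4390, 4583, 3607 and 7246 in A6, B6, C6 and G6, a log2 difference of 0.66. Klrd1, the CD94 receptor chain of NK cells, was at 425, 421, 335 and 584 in number 5 and at 731, 892, 713 and 909 in number 6, and did not overlap. Its difference was 0.90 (SE 0.10, adjusted p = 0.017, limma). Ncr1, the activating receptor NKp46, was at 155, 143, 124 and 253 against 301, 279, 252 and 370, where only C6 lay below G5. Tbx21, the transcription factor T-bet of type 1 lymphocytes, was at 390, 377, 300 and 533 against 877, 749, 825 and 873 and did not overlap, with a difference of 1.08. Without the letter block, Gzma, Prf1 and Ncr1 did not pass, at adjusted p-values of 0.11, 0.18 and 0.098 by limma. Klrd1 and Tbx21 did, at 0.040 and 0.022.

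Transcription factors and signalling genes of T cells rose as well. Gata3, a master regulator of T cells and type 2 innate lymphoid cells, was at 947, 556, 541 and 537 in A5, B5, C5 and G5 and at 1484, 1506, 1408 and 977 in A6, B6, C6 and G6. A5 stood above the other samples numbered 5 and G6 below the other samples numbered 6, and the groups still did not overlap. The log2 difference was 1.08 (SE 0.13, adjusted p = 0.021, limma). Txk, a kinase of the Tec family found in T and NK cells, was at 350, 378, 362 and 546 against 670, 749, 688 and 863, a difference of 0.87 without overlap. Gfi1, a transcriptional repressor of blood cell development, was at 64, 58, 58 and 80 against 122, 114, 120 and 162, a difference of 0.99 without overlap. Trac, the constant segment of the T cell receptor alpha chain, was at 923, 941, 874 and 1077 against 1546, 1548, 1385 and 1647, also without overlap, with a difference of 0.68.

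Of the 20 genes in the list of T and NK cell markers, 13 rose, none fell and 7 did not pass the test. The median log2 difference of the list was 0.60, against -0.0018 over all genes, and all 20 were positive, as were 49.6% of all genes. Among the 7 that did not pass, Gzmb, another granzyme, had a difference of 0.47 with an adjusted p of 0.053 by limma, and Cd4, the coreceptor of helper T cells and in rats also of macrophages, one of 0.35 with an adjusted p of 0.11. Cd8a, the coreceptor of cytotoxic T cells, rose by 0.63, and Cd3e, a chain of the receptor complex, by 0.50. The list score differed by 0.71, 0.66, 0.57 and 0.64 in letters A, B, C and G, a mean of 0.65 ± 0.06 (SD, n = 4 letters). Over 4 letters an exact two-sided sign-flip permutation test of a single score cannot reach 0.05, so none is given. The scores of number 6, from 0.19 to 0.76, lay above those of number 5, from -0.38 to 0.12, and within those of numbers 1 to 4, which ran from -0.42 to 0.79. Those of number 2 overlapped number 6, at 0.79, 0.29, 0.44 and 0.32 in A2, B2, C2 and G2. The highest in numbers 1, 3 and 4 was 0.07, in G4.

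**Figure D2:**
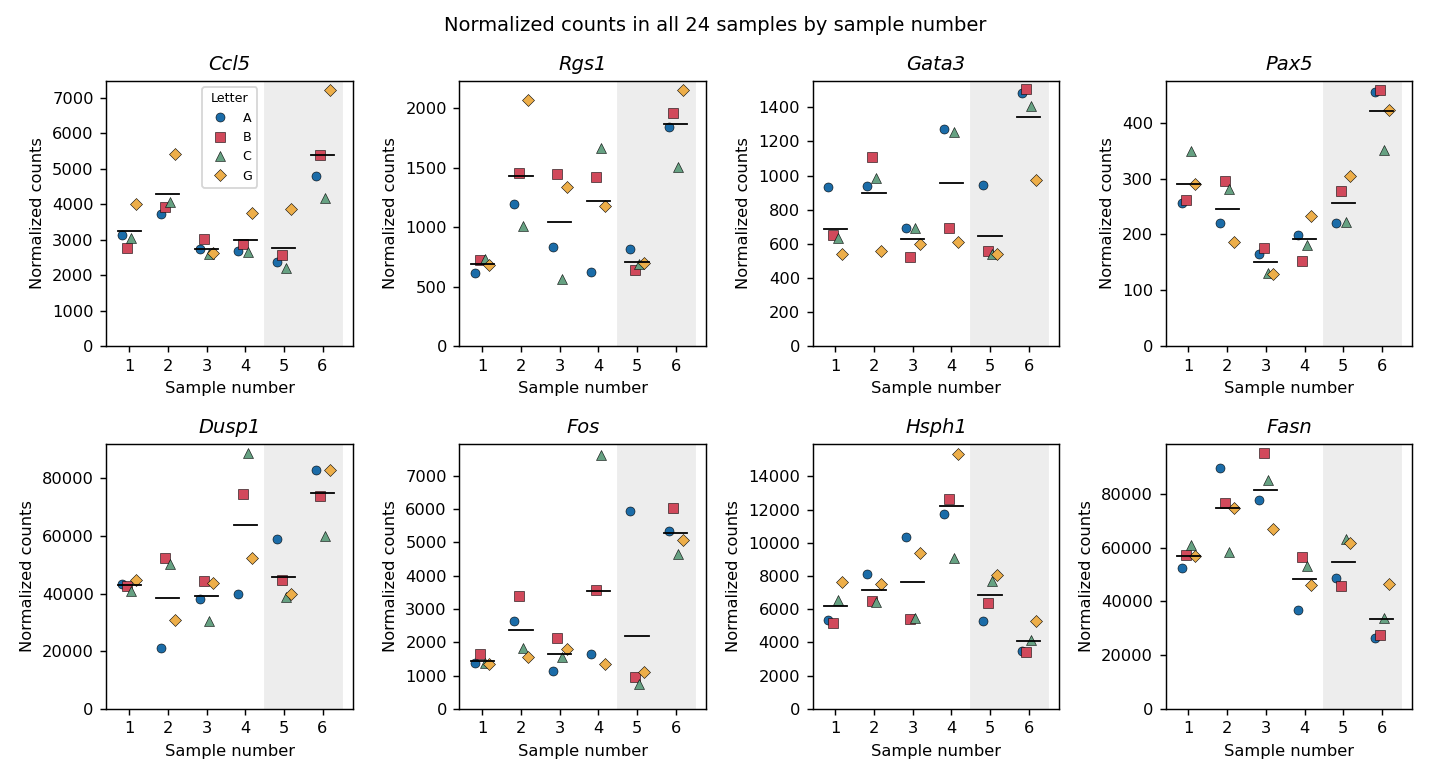
Normalized counts of 8 genes in all 24 samples, with the sample number on the x axis, a marker for each letter and a bar at the mean of each number. The shaded columns are numbers 5 and 6. The 4 samples numbered 6 lie above all 4 numbered 5 for Ccl5, Rgs1, Gata3, Pax5 and Dusp1, and A5 stands with number 6 for Fos.

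Genes of the B cell receptor and of B cell identity rose. Ighm, the heavy chain of immunoglobulin M, was at 2885, 3114, 2972 and 3816 in A5, B5, C5 and G5 and at 5769, 5112, 4669 and 6331 in A6, B6, C6 and G6. The groups did not overlap, and the log2 difference was 0.77 (SE 0.07, adjusted p = 0.013, limma). Pax5, the transcription factor of B cell identity, was at 220, 277, 223 and 305 against 455, 458, 351 and 423, a difference of 0.72. All samples numbered 6 lay above all numbered 5, and also above the 16 samples numbered 1 to 4, whose highest value was 350.

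Of the 18 measured genes in the list of B and plasma cell markers, 6 rose, none fell and 12 did not pass, with 12 positive and a median of 0.39. Over all genes 0.437% were called higher and 49.6% were positive. Among the 6 were Ighm, Pax5, Cd79a, Cd79b and Ms4a1, the last of which encodes CD20. Of the genes of antibody secretion, Mzb1 had a difference of -0.27, Xbp1 one of -0.24 and Igha, the heavy chain of immunoglobulin A, one of 0.43, with adjusted p-values of 0.46, 0.18 and 0.25 by limma. A pair of immunoglobulin variable segments, Igkv12-42 and Ighv5-9, fell by 0.87 and 0.48 on the log2 scale. Both names are mouse segments in a table of rat reads, both overlapped between the numbers, and reads of near-identical segments may be shared between rows, so these values are uncertain. The list of 11 thymus and lymph node genes had no called gene, 8 positive and a median of 0.15. Its score differed by 0.50, -0.05, -0.16 and 0.31 in letters A, B, C and G. Whether lymphoid tissue was carried in a sample was not tested. The scores of this list, from -0.46 to -0.06 in number 5 and from -0.24 to 0.19 in number 6, overlapped.

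Beyond the lists, the called genes were grouped by known role after their values had been seen, which put 109 of the 159 into 13 groups. Only called genes were grouped, so the counts have no share over all genes beside them and the differences are those of called genes alone. The groups describe the calls and do not support them. There were 24 genes of the T cell receptor and its signalling, with differences from 0.43 to 1.08, 17 of cytotoxic and NK cells, from 0.58 to 1.12, and 12 of B cells, from 0.56 to 0.79. A further 6 were receptors of leukocyte trafficking, from 0.48 to 0.84. Among them Ccr7, which guides lymphocytes to lymph nodes, was at 1084, 1131, 870 and 1198 in number 5 and at 1407, 1796, 1250 and 1658 in number 6, and S1pr4, a sphingosine phosphate receptor of leukocytes, at 934, 938, 974 and 942 against 1270, 1273, 1279 and 1492. Neither overlapped. A pair of genes of leukocytes in general, also picked after their values were seen, were called. Ptprc, the common leukocyte antigen CD45, rose by 0.38 and Coro1a, an actin regulator of leukocytes, by 0.52.

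The samples numbered 1 to 4 show on which side of the series the 2 numbers lay. In 115 of the 134 higher genes and 19 of the 25 lower ones the mean of number 6 was farther than that of number 5 from the median of numbers 1 to 4, while this held for 55.4% of all genes. For 16 of the higher genes all 4 samples numbered 6 lay above all 16 samples numbered 1 to 4, as they did for 0.796% of all genes. These include Pax5, Klrd1, Txk, Stat4, the signal transducer of interleukin 12, Tcf7, the transcription factor of naive T cells, and S1pr4. For 5 of the lower genes, among them Hspa8 and Oxct1, a mitochondrial enzyme of ketone use, they lay below all 16, as for 0.626% of all genes. Tfpi, the tissue factor pathway inhibitor of coagulation, was the 1 called gene in which all of number 5 stood beyond numbers 1 to 4, which held upward for 0.258% of all genes. It was at 5858, 5827, 5460 and 4840 in number 5, above the highest value of 4583 in numbers 1 to 4, and at 3983, 4374, 4171 and 3689 in number 6. Genes were called for a clear gap between numbers 5 and 6, which makes it easier for either number to lie beyond numbers 1 to 4. The shares over all genes are thus not a fair measure for called genes, and these counts do not support the calls.

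Genes of fast cell responses held the largest difference named by size. Rgs1, a regulator that damps G protein signals in lymphocytes and other cells, was at 816, 636, 687 and 701 in A5, B5, C5 and G5 and at 1840, 1962, 1503 and 2149 in A6, B6, C6 and G6. The samples numbered 5 were close to each other and far below all samples numbered 6, and the log2 difference was 1.38 (SE 0.10, adjusted p = 0.0041, limma). Rgs2, of the same family, was at 2839, 2318, 2037 and 2249 against 5109, 4452, 4104 and 3969, a difference of 0.90 without overlap. Adora2a, a receptor for adenosine, was at 1257, 985, 867 and 948 against 1937, 1725, 1867 and 2093, a difference of 0.92 without overlap.

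Dusp1, a phosphatase that switches off MAP kinases, was at 58920, 44704, 38853 and 39887 in number 5 and at 82814, 73703, 59866 and 82918 in number 6. It was the only gene to pass among the 30 chosen by name apart from Hsph1, with a difference of 0.72 (SE 0.09, adjusted p = 0.024, limma), and C6 lay just above A5. Dusp1 is a target of cyclic AMP signalling as well as of MAP kinases and glucocorticoids, and its promoter is shown for the response element it holds. The stretch lies 149 to 92 bases before the start of the gene in the RefSeq annotation of the rat assembly GRCr8, at chr10:17184704-17184761 on the plus strand. Capitals mark the cyclic AMP response element TGACGTCA, which reads the same on both strands and was found in the 250 bases before the start in 1.59% of 33469 RefSeq promoters.
Dusp1: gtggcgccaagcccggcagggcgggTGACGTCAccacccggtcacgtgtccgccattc
The match is of letters alone, and binding there was not measured.

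Fos, the immediate early transcription factor, was at 5951, 970, 737 and 1104 in A5, B5, C5 and G5 and at 5337, 6026, 4647 and 5070 in A6, B6, C6 and G6. A5 lay among the samples numbered 6 and the other 3 samples numbered 5 far below them. The log2 difference was 1.83 (SE 0.40) with an adjusted p of 0.11 by limma, and without letter A it was 2.50 with an adjusted p of 0.0025. Egr1, another such factor, repeated the pattern at 12325, 3196, 1706 and 1810 against 12220, 11632, 10635 and 6909, with an adjusted p of 0.096, and without letter A a difference of 2.14 with an adjusted p of 0.029. Ccn1, a matricellular protein induced by serum, and Fosb, a partner of Jun, had differences of 1.62 and 1.51 that did not pass, and of 2.17 and 2.06 without letter A, both then at an adjusted p of 0.0025. With B, C or G left out, none of Fos, Egr1, Ccn1 and Fosb passed, at adjusted p-values from 0.14 to 0.57 by limma. The values without letter A are given after A5 was seen to stand apart, and do not make these genes called.

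In the list of 29 measured immediate early genes, 2 rose, Dusp1 and Gadd45b, a stress sensor, and none fell. The median difference was 0.39 and 23 were positive. Without letter G the median was 0.12 and without letter A 0.58. The score differed by -0.23 in letter A and by 0.38, 0.52 and 1.13 in B, C and G, so the letters did not go the same way. Nr4a1, an orphan nuclear receptor induced by the same stimuli, was at 13376, 11296, 4042 and 2967 in number 5 and at 13551, 14323, 8151 and 21244 in number 6, a difference of 1.05 with an adjusted p of 0.32 by limma, and of 0.46 without letter G.

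**Figure D3:**
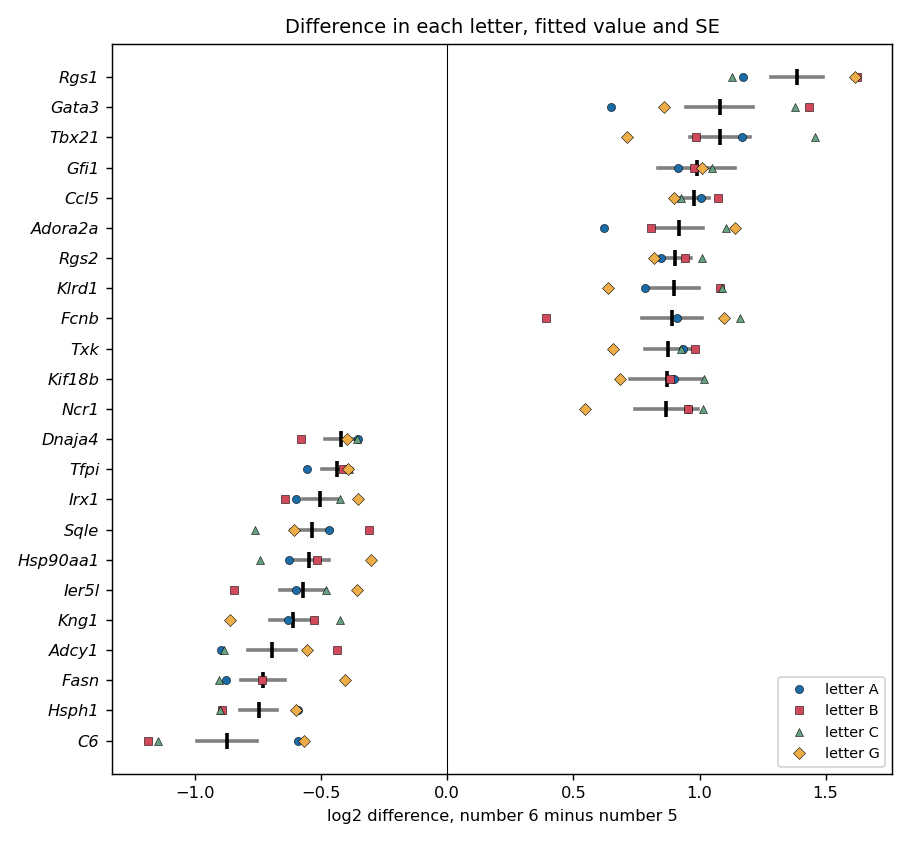
The 12 genes with the largest and 11 of the 12 with the smallest log2 difference among the called genes of mean at least 50 that carry a rat symbol. Markers show the difference in each letter, black ticks the fitted value and grey bars its SE, on an x axis of log2 difference, number 6 minus number 5. All 4 letters lie on the same side of 0 for all genes plotted, from Rgs1 at 1.38 to C6 at -0.87.

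Some genes of cell division were higher in number 6. Top2a, the topoisomerase of DNA replication and mitosis, was at 413, 431, 360 and 627 in A5, B5, C5 and G5 and at 736, 882, 657 and 787 in A6, B6, C6 and G6, against a median of 686 and a range from 369 to 4362 in numbers 1 to 4. Its difference was 0.76 (SE 0.12, adjusted p = 0.036, limma) and the numbers did not overlap. Of the 20 genes in the proliferation list, 3 rose, Top2a, Cdk1, the kinase that starts mitosis, and Mcm3, part of the replication helicase. None fell, 18 were positive and the median was 0.45. Mki67, the proliferation antigen, was at 557, 579, 632 and 695 against 901, 990, 748 and 991, a difference of 0.56 with an adjusted p of 0.061. Kif18b, a mitotic kinesin, rose by 0.87. In none of the 6 called genes grouped as cell cycle was number 6 the farther one from the median of numbers 1 to 4.

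Among myeloid genes, Fcnb, the lectin ficolin B of monocytes and neutrophils, was at 1439, 1108, 1252 and 1526 in number 5 and at 2708, 1452, 2803 and 3267 in number 6. B6 lay among the samples numbered 5 and the other 3 far above, and the difference was 0.89 (SE 0.12, adjusted p = 0.026, limma). Il1b, the cytokine interleukin 1 beta, was at 861, 812, 804 and 898 against 1476, 1007, 1290 and 1469 and did not overlap, with a difference of 0.62. It was the 1 gene of 17 to pass in the list of neutrophil and acute inflammation genes, whose median was 0.35. S100a8, a calcium-binding protein abundant in neutrophils, had a difference of 0.41 with an adjusted p of 0.20. No gene of the 19 macrophage markers passed, with a median of 0.02, and Mmp12, the macrophage elastase, ranged from 61 to 162 in number 5 and from 44 to 305 in number 6.

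A cytokine of low level stood out, chosen after its values were seen because its mean fell below the size asked of named genes. Il10, which restrains inflammation, was at 16, 11, 6.94 and 13 in A5, B5, C5 and G5 and at 55, 51, 24 and 173 in A6, B6, C6 and G6, against at most 95 in numbers 1 to 4. The groups did not overlap, G6 was far above the other 3, and the log2 difference was 2.27 (SE 0.36, adjusted p = 0.041, limma). The adjusted p was 0.052 at a pseudocount of 0.1, 0.053 at one of 5, 0.078 without the letter block and 0.17 in a fit of all 24 samples. The largest difference of all called genes, 2.87 for Acot12, a liver thioesterase, rests on normalized counts of at most 1.02 in number 5 and of 3.85 to 24 in number 6. On the log2(value + 1) scale a difference at such a level understates the ratio, and it is not read further. It was 5.38 at a pseudocount of 0.1 and 1.34 at one of 5, past the threshold in neither.

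In the lists of interferon response and of antigen presentation, 1 gene passed. Mx1, an antiviral GTPase induced by interferon, was at 1125, 936, 1063 and 1050 in number 5 and at 2044, 1499, 1272 and 1708 in number 6, a difference of 0.62 (SE 0.10, adjusted p = 0.040, limma) without overlap. It was the 1 gene of 19 in the interferon response list to pass, and 17 were positive with a median of 0.30. Irf7, a regulator of type I interferon, had 0.46 with an adjusted p of 0.053. Of 16 measured genes of MHC and antigen presentation none passed, all 16 were positive and the median was 0.14. H2-Oa, a class II gene outside that list, rose by 0.74 (adjusted p = 0.021, limma).

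Constitutive and inducible chaperones were among the genes that fell. Hsph1, a chaperone of the HSP110 family, was at 5273, 6381, 7687 and 8038 in A5, B5, C5 and G5 and at 3498, 3434, 4114 and 5305 in A6, B6, C6 and G6. Every letter fell, and the groups touched where G6 lay just above A5. The log2 difference was -0.75 (SE 0.07, adjusted p = 0.014, limma), and without the letter block the adjusted p was 0.066. Hspa8, the constitutive HSC70, was at 31497, 36551, 40275 and 38883 against 24443, 28197, 30218 and 28883 and did not overlap. All its samples numbered 6 lay below the lowest of numbers 1 to 4, at 34260, and the difference was -0.40.

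Hsp90aa1, the inducible HSP90, was at 25387, 23739, 29519 and 26953 in number 5 and at 16445, 16615, 17639 and 21892 in number 6, a difference of -0.55 without overlap. Dnaja1, a cochaperone of HSC70, fell by 0.39 and Dnaja4, of the same family, by 0.42, neither with overlap. Of the 19 genes in the heat shock list, 4 fell, none rose and 15 did not pass, with 17 negative and a median of -0.33, where 50.4% of all genes were negative. The classic inducible Hspa1a was not among them. It was at 25, 23, 21 and 33 against 13, 17, 96 and 32, where C6 alone stood high, and its difference of 0.21 had an adjusted p of 0.90. Scores fell by 0.38, 0.35, 0.10 and 0.18 in letters A, B, C and G.

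The promoters of Hsph1, Hspa8 and Dnaja1 are shown because heat shock factor binds repeats of GAA and its reverse TTC. These members were picked from the called genes. The sequences are those of RefSeq on GRCr8, bases before the start of the gene only, at chr12:10427307-10427367 for Hsph1, chr8:50080276-50080496 for Hspa8 and chr5:60638198-60638255 for Dnaja1, all on the plus strand. Capitals mark the matched units.
Hsph1: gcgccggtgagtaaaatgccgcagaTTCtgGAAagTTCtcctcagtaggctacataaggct
Hspa8: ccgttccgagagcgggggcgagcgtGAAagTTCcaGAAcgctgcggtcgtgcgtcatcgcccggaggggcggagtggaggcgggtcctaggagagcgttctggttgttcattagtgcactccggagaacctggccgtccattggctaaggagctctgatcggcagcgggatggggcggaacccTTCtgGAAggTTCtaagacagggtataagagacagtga
Dnaja1: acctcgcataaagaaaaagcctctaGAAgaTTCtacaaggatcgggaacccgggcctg
Hsph1 and Hspa8 hold the element of 3 units, GAANNTTCNNGAA searched on both strands, Hspa8 at 2 places 213 to 43 bases before the start, and Dnaja1 holds the shorter GAANNTTC. Of the 19 listed chaperone genes 15 were matched in the promoter table, of which 4 held the element of 3 units and 9 the one of 2 units, which any element of 3 units includes. Over all 33469 promoters the shares were 0.663% and 7.23%. The 4 genes with the element of 3 units were Hspa8, Hsph1, Hspe1 and Hspd1, of which Hspe1 and Hspd1 were not called. Hspb1, Dnajb1, Bag3 and Fkbp4, which held only the element of 2 units, were not called either. Hspe1 and Hspd1 had the same counts of matches, and whether they share sites was not checked. Hsp90aa1, which fell, had no entry among the promoters and was not searched. Dnaja4, which fell as well, held neither element in this window. Matches are descriptions of letters and do not show that the factor was bound.

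Fatty acid and sterol synthesis held called genes that fell. Fasn, the fatty acid synthase, was at 48528, 45530, 63232 and 61673 in A5, B5, C5 and G5 and at 26431, 27414, 33813 and 46533 in A6, B6, C6 and G6. G6 alone reached the samples numbered 5, and the log2 difference was -0.73 (SE 0.09, adjusted p = 0.021, limma). Without the letter block the adjusted p of Fasn was 0.087 by limma. Sqle, the squalene epoxidase, was at 2178, 2027, 3207 and 2593 against 1574, 1634, 1891 and 1704, a difference of -0.54 without overlap.

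The list of 23 sterol and fatty acid genes had 2 that fell, Fasn and Sqle, none that rose and 22 negative, with a median of -0.32. At an unadjusted p under 0.05 by limma, 18 of the 23 were lower, as were 5.08% of all genes. Other lists had like counts, with 13 of 19 in the heat shock list and 12 of 18 in the ciliated list. The list of unfolded protein and integrated stress response had 8 of 16. None of these lists had a gene higher at that threshold. Scd1, the stearoyl-CoA desaturase, was at 27118, 19344, 29285 and 29538 in number 5 and at 7968, 11040, 11679 and 24930 in number 6, where G6 again lay among number 5, and its difference of -1.04 had an adjusted p of 0.073 by limma. Without letter G it was -1.30 with an adjusted p of 0.016. Cpt1a, which carries fatty acids into mitochondria for oxidation, rose. It was at 4867, 6414, 4547 and 4663 against 8925, 9030, 8734 and 6346, a difference of 0.69 (adjusted p = 0.026, limma), where G6 lay just under B5. Fasn is also in the list of alveolar type 2 markers, where it was the 1 call of 15, at a median of -0.14.

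**Figure D4:**
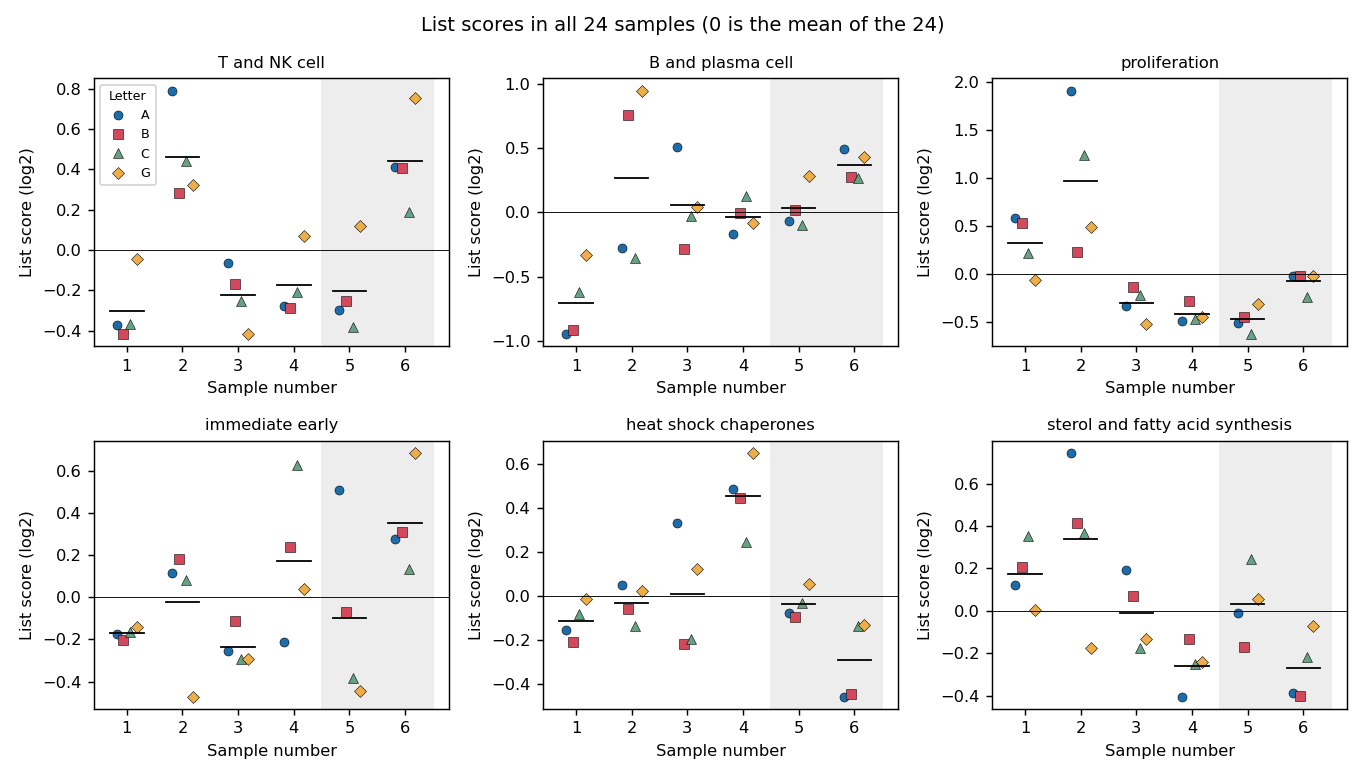
Scores of 6 gene lists in all 24 samples, as the mean log2 deviation of the genes of a list from their means over the 24 samples, with the sample number on the x axis, a marker for each letter and a bar at the mean of each number. In the shaded columns the T and NK cell scores of number 6, from 0.19 to 0.76, lie above those of number 5, while the immediate early score of A5, at 0.51, lies among those of number 6.

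A few called genes encode proteins of plasma cascades. C6, a complement protein of the membrane attack complex, was at 1308, 1428, 1810 and 1481 in the samples A5, B5, C5 and G5 and at 868, 627, 818 and 998 in the samples numbered 6 of the same letters, a difference of -0.87 (SE 0.12, adjusted p = 0.026, limma) without overlap. Kng1, the precursor of bradykinin, fell by 0.61 and Tfpi by 0.44. In all 3 number 5 was the farther one from the median of numbers 1 to 4. Adcy1, an adenylyl cyclase, fell by 0.69, Irx1, a homeobox factor of lung development, by 0.50, and Ier5l by 0.57.

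Vascular and developmental regulators were also among the higher genes. Sox18, an endothelial transcription factor, was at 9283, 8060, 8148 and 5989 in number 5 and at 11022, 12659, 12706 and 10988 in number 6, a difference of 0.60 (SE 0.09, adjusted p = 0.036, limma) without overlap. The general endothelial marker Pecam1 had a difference of -0.06 with an adjusted p of 0.78, and Sox18 was the 1 call of 19 endothelial markers, whose median was 0.06. Esm1, secreted by endothelial tip cells, rose by 0.56, Hoxa5, a patterning gene of the lung, by 0.72 and Axin2, a Wnt target, by 0.47.

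The lists of ciliated, club and secretory, alveolar type 1, smooth muscle, extracellular matrix, mesothelial and cardiac genes had no calls. The 18 ciliated cell markers had a median of -0.37 with 17 negative, and Foxj1, their master regulator, was at 5302, 6491, 6093 and 8205 against 4991, 5123, 4551 and 4283, a difference of -0.45 with an adjusted p of 0.18 by limma. Of the 18 markers, 12 were lower at an unadjusted p under 0.05 by limma, as were 5.08% of all genes. The 14 club and secretory genes had a median of -0.48, with score differences of 0.86, -1.03, -0.31 and -2.04 in letters A, B, C and G. Scgb3a1, a secretoglobin of large airways, was at 22342 in G5 and at 1174 in G6. The 13 alveolar type 1 markers had a median of 0.00, the 13 smooth muscle genes one of -0.27, the 20 extracellular matrix genes one of -0.15 and the 9 mesothelial genes one of -0.74. Cardiac muscle genes had a median of -1.17, with score differences from 2.06 in letter A to -5.14 in letter G.

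Targets of the aryl hydrocarbon receptor, which polycyclic aromatic hydrocarbons activate, did not pass the test. Cyp1a1, its leading target, was at 7049, 5852, 5067 and 1080 in number 5 and at 2463, 3106, 3953 and 1921 in number 6, a difference of -0.49 with an adjusted p of 0.57 by limma. It was -0.15 without letter A and -0.93 without letter G, where the adjusted p was 0.061. Ahrr, the receptor's repressor, was at 45 in G5 and 58 in G6 and between 372 and 583 in the other 6 samples, so letter G stood apart within both numbers. None of the 17 genes of this list and the NRF2 response passed, and Nqo1, an oxidoreductase in it, had a difference of -0.33 with an adjusted p of 0.18.

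Clock genes, which cycle through the day, did not pass either. All 7 measured genes of the positive limb were positive, with a median of 0.26, and of 13 in the negative limb and output 4 were positive, with a median of -0.06. Nr1d1, the repressor REV-ERB alpha, had a difference of 0.55, Arntl, the clock activator BMAL1, one of 0.18, Npas2, its partner, one of 0.11, Dbp, an output factor, one of 0.08, Per1 one of -0.62 and Per2 one of -0.26, with adjusted p-values from 0.15 to 0.90 by limma. Of genes that answer to glucocorticoids, Tsc22d3 had -0.44 and Fkbp5 -0.08, neither past the threshold, and of 18 in that list only Dusp1 passed.

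Further genes chosen by name did not pass with all 4 letters in the fit. Scgb1a1, the club cell secretoglobin, had -0.14, Acta2, smooth muscle actin, -0.35, Col1a1, a collagen chain, -0.32, Hba-a1, a globin, 0.08, Alas2, the heme enzyme of red cells, -0.35 and Xist, the RNA of the inactive X, -0.00. Sftpc had -0.14 and Ager 0.00, a sign that changed under each of 3 other scalings. By limma the lowest adjusted p among these 8 was 0.28. Without letter G, Col1a1 was at -0.51 and Alas2 at -0.71, with adjusted p-values of 0.020 and 0.0088.

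**Figure D5:**
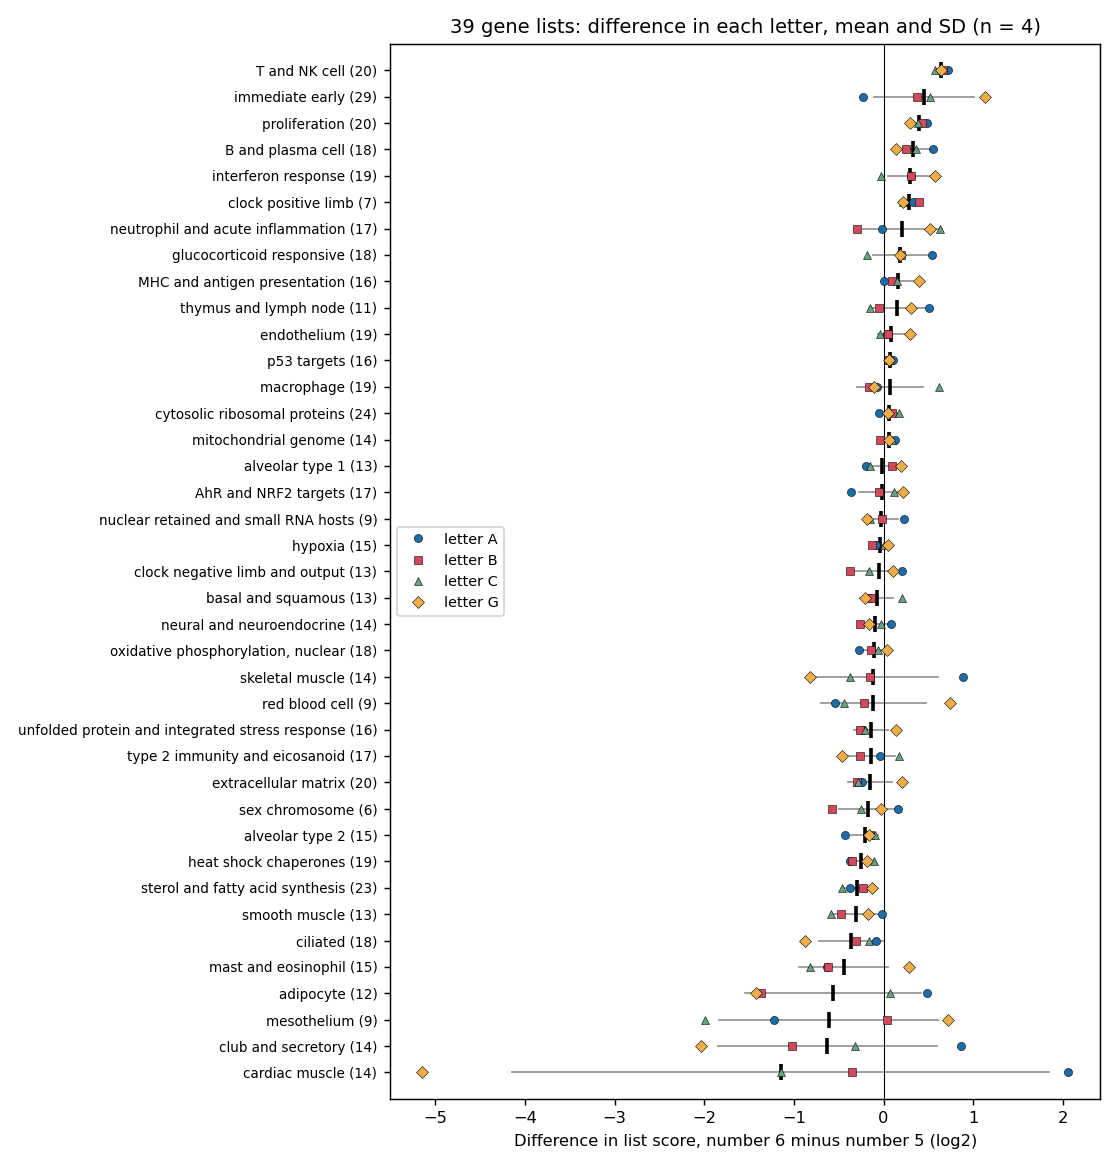
Difference in list score, number 6 minus number 5 (log2), for 39 gene lists ordered by their mean, with the number of measured genes in brackets. Markers show letters A, B, C and G, black ticks the mean and grey bars the SD over 4 letters. The T and NK cell list lies at 0.65 with its 4 letters close together, while the cardiac list runs from -5.14 in letter G to 2.06 in letter A.

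Over the 21878 genes of mean at least 10, the Pearson correlation across genes between the differences of 2 letters was 0.14 for A and B, 0.23 for A and C, 0.22 for B and C, 0.22 for B and G, 0.15 for C and G and -0.17 for A and G. Genes are not independent replicates and no p is given.

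Names limit some of the rows. Of the 134 higher genes 124 carry a symbol of the rat RefSeq annotation, and of the 25 lower genes 15 do. The lower ones include 8 with mouse gene-model names, which are counted here and not interpreted, since reads of a processed copy and its parent gene may be shared. A pair of the higher rows have names that had been turned into dates.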

How the data were processed

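Messenger RNA from lung tissue of rats was sequenced on an Illumina platform, per the labels' protocols. As deposited, the signal table holds read counts per gene that look adjusted toward a common library size. The adjustment, the counting tool and the annotation are not given in the sources used here. STAR, an aligner, and GRCm38, a mouse build, are named in the submitters' processing notes with no role or version. All samples are labelled rat, so values of genes whose rat and mouse sequences differ may be affected, and coordinates of the table were not used. Sample depth is unknown, so no counting interval is given.

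The comparison used the 8 samples numbered 5 and 6 and all 30667 genes, on log2(value + 1), in limma 3.58.1 (R 4.3.3) with an intensity trend, number and letter as terms, 3 residual degrees of freedom and a two-sided Benjamini-Hochberg adjusted p of 0.05 over all genes. The letter was a block because the comparison is defined that way. Over the 21878 genes of mean at least 10, the deviations of same-lettered samples correlated at -0.10, 0.01, 0.06 and -0.12 in A, B, C and G. Over these genes as a whole, the data thus do not show that letters pair samples. Single genes did go with a letter. Ahrr was at 45 in G5 and 58 in G6, where the next lowest values were 512 in number 5 and 372 in number 6. The text names the 12 highest and 12 lowest called genes of mean at least 50 with the same sign in 4 of 4 letters and a rat RefSeq symbol, 30 genes chosen by name and up to 4 of smallest p in a list. Some genes that meet these rules are not reported here. Other genes were chosen after their values were seen. The comparison, the 39 gene lists and the named genes were chosen with earlier results of these data known. Lists are described by counts and medians, with no test of a list. The symbols of 16143 rows (52.6%) are in the rat RefSeq annotation of GRCr8, from which promoters were taken. The script was tested on simulated data of 30667 genes for this comparison, where 52% of 50 genes changed 1.5-fold were recovered, 72% at 2-fold, 90% at 3-fold and 96% at 4-fold, with 4 false calls. The changed genes were drawn only from those with a mean log2 value above log2(50), so recovery at lower levels is not covered. The noise was normal and independent between genes, in a single run. Its SD for each gene was the one fitted to that gene on 3 residual degrees of freedom, which is itself uncertain. Recovery in the real data may therefore differ. Other blocks, sample sets, pseudocounts, scalings and filters and each letter left out were tried.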

Additional observations from a re-analysis of the deposited data

Results flagged for a closer look

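In 402 groups of 4 samples (162 genes and 39 lists, in each number), 27 held 1 sample whose gap to the next was larger, as a share of the range, than Dixon's critical value, and chance alone flags about 1 in 20 groups, or 20.1 here. The values are normalized counts or list scores, and no explanation was tested.

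In number 5, sample A5 stood high for Ccn1 (11803 against at most 2833), Gata3 (947 against 556), Adrb1, a beta adrenergic receptor (3661 against 2379), and Tubb4b, a tubulin of cilia (17529 against 16159), and low for Per1 (10413 against at least 21123). Its score was high for MHC and antigen presentation (-0.084) and low for thymus and lymph node (-0.46). G5 stood low for Ahrr (45) and high for S1pr5 (467) and Bcl11b (809), a transcription factor of T cells. B5 was at 1.02 for Acot12 where the others were near 0.

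In number 6, sample G6 stood low for Gata3 (977), Ahrr (58), Cpt1a (6346) and Ptger4, a prostaglandin receptor (1367). It stood high for Runx3, a factor of cytotoxic cells (1775), S1pr4 (1492), Ikzf1, the lymphoid factor Ikaros (3627), Hsp90ab1, the constitutive HSP90 (72925), and Oxct1 (5685). Its scores were low for ciliated cells (-0.25) and high for mast cells and eosinophils (0.48) and extracellular matrix (-0.10). C6 was high for Dnajb1, a cochaperone (4592), and low for Trbc1, a T cell receptor segment (1078), and for the proliferation score (-0.24). A6 was high for the club and secretory score (0.84).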

How the results depend on the processing

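Of 159 calls (134 higher, 25 lower), 101 were made without the replicate block (82 higher, 19 lower, 79 of the 159 among them) and 348 with robust empirical Bayes (271 higher, 77 lower). A fit of all 24 samples made 118, with 64 of the 159 among them, and the other 6 settings with all letters 115 to 177, with 115 to 158 of the 159. Leaving out each letter gave 0 to 337 calls, 0 to 192 higher and 0 to 145 lower, and the share higher fell from 84.3% to 57.0% without G. Calls of list members, 33 in all, were 18 without the block, 12 with all 24 samples, 59 robust and 0 to 70 with a letter left out. T and NK cell calls, 13, were 5 without the block and 0 to 12 with a letter left out, where the list's median ran from 0.5524 to 0.6637. B and plasma cell calls, 6, were 2 with all 24 samples, 3 at a pseudocount of 0.1 and 0 to 7 with a letter left out. Heat shock calls, 4, were 2 without the block, 0 with all 24 samples, 7 robust and 0 to 7 with a letter left out. All 159 genes kept their sign in every setting that tested them. With a letter left out this follows from the same sign in 4 of 4 letters. Without the block and with all 24 samples the fitted difference is the same by design, so these signs are no further support. Of the 24 genes that the rule picks by size, 24 stayed called under quantile and trimmed-mean scaling. The count was 23 without G, 15 without the block, 11 with all 24 samples, 3 without A and 0 without B or C. Medians of immediate early genes ran from 0.1169 to 0.5780. The 14 changes of sign were all in genes that were not called. Ager gave -8.0703e-04, -0.0034 and -5.6339e-04 under quantile, 75th percentile and trimmed-mean scaling and -0.0719 to 0.0606 with a letter left out, and Xist 0.0222 under quantile scaling and -0.0555 to 0.0652. With a letter left out Dbp ran from -0.1003 to 0.3417, Fkbp5 from -0.3211 to 0.0831, Hspa1a from -0.4382 to 0.5620, Mmp12 from -0.0197 to 1.1281 and Hba-a1 from -0.1889 to 0.2913. Fewer samples are fitted when a letter is left out, and other causes were not tested. Depth is unknown, and 4 letters limit all of these.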
